A study of Mus musculus with 2 samples.

Results

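The Etv5-only distal regions are 1591 of the 8297 regions in which a ChIP-seq library made with an antibody to Etv5 was enriched. They were selected on the region lists of both libraries of the series. A region was kept when it had no base in common with any region of the Etv4 list, lay on a nuclear chromosome, and had its midpoint more than 2 kb from every annotated transcript start. It also had to lie inside a gene but outside its exons, or outside all genes and at most 50 kb from the nearest start. By this rule 830 regions were intronic and 761 were intergenic. The absence of an Etv4 region and the location of the members are therefore properties of the choice and not results. Both libraries were made from EpRas, which is the mouse mammary epithelial line EpH4 transformed with an oncogenic H-Ras. The cells grew in 4% fetal bovine serum and received 1 ng/ml TGF-β3 for 1.5 h. The Etv4 library was made with a rabbit polyclonal antibody and the Etv5 library with a mouse monoclonal antibody. Thus all groups described here share the line, the Ras transformation and the TGF-β treatment, and neither untreated cells nor an input or control immunoprecipitation were analysed here. There was 1 library per antibody and no replicate, so no p-value is given. Intervals are 95% intervals that cover counting error alone and treat regions as independent. The lists hold positions and no read counts, so the depth of the libraries is unknown. A difference between the factors and a difference between their antibodies cannot be told apart.

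Etv4 and Etv5 belong to the PEA3 group of ETS transcription factors, which recognise DNA with a GGAA core and act downstream of Ras and ERK signalling. ETS factors often bind next to AP-1, the dimers of Fos and Jun proteins, at enhancers, the distal elements that raise transcription of genes from within introns or between genes. In mammary epithelium, PEA3 factors are linked to branching of ducts, to proteases and to the epithelial-mesenchymal transition (EMT), in which TGF-β and Ras cooperate.

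The sequences below show what individual members held in the 500 bp around their midpoints, with ETS sites (CAGGAAGT or CCGGAAGT) and AP-1 sites (TGACTCA or TGAGTCA) in capitals. That window can be wider than the region itself. Each stretch is written 5′ to 3′ on the plus strand of mm10 (GRCm38), and a site on the minus strand reads as its reverse complement. They were taken from regions of mostly unique sequence. The first 3 had the ETS and AP-1 sites closest together. In Cdk14 the sites shared 2 bases, near Pcsk6 they shared 1 base, and in Sfxn5 they were 10 bases apart. The Sfxn5 region ended at base 85274641, and its ETS site (85274640 to 85274647) lay mostly beyond that end. The printed stretches of Pcsk6 and Sfxn5 both ran past the end of the region. The next 3 were the members of lowest region number with the strict ETS site CCGGAAGT, and the last 2 those of lowest number with AP-1 but no ETS site.
Cdk14, intronic, chr5:4858170-4858318: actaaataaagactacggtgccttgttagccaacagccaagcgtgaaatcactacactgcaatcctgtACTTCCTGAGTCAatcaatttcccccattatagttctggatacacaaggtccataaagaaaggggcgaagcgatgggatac
Pcsk6, upstream, chr7:65822942-65823091: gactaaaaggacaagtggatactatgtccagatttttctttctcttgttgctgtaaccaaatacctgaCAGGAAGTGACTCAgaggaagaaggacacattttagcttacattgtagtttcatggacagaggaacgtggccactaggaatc
Sfxn5, intronic, chr6:85274561-85274709: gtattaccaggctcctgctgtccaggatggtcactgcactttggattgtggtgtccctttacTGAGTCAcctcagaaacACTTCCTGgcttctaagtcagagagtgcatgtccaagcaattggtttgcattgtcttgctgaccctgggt
Dlx4, upstream, chr11:95153551-95153700: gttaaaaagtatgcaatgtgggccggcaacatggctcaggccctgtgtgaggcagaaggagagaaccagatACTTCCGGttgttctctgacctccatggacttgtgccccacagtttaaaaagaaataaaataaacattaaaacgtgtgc
Mapkapk2, upstream, chr1:131112674-131112823: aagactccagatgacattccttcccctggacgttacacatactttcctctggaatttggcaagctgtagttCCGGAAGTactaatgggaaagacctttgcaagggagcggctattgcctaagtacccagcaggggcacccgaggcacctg
Pik3cb, upstream, chr9:99167165-99167314: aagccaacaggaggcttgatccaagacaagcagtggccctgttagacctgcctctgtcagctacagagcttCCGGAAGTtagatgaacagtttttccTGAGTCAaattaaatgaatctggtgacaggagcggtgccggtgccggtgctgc
Sdr9c7, downstream, chr10:127925124-127925272: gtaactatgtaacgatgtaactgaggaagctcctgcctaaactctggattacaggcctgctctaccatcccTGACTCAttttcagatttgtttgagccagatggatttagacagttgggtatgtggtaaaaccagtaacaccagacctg
no protein-coding start within 50 kb, chr15:102839841-102839989: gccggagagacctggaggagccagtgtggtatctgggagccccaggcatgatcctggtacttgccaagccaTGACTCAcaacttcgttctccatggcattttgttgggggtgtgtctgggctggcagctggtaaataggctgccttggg

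The printed members illustrate different arrangements. The Cdk14 and Pcsk6 sequences joined an ETS and an AP-1 site into 1 composite element, while Pik3cb held both sites on the same stretch without contact. Cdk14 encodes a cyclin-dependent kinase, Pcsk6 a proprotein convertase, Mapkapk2 a kinase activated by p38, and Pik3cb a catalytic subunit of phosphoinositide 3-kinase. The region in intron 14 of 14 of Cdk14 lay 317 kb from the nearest Etv4 region, and the one upstream of Pik3cb lay 2.91 kb from it. Such composites were uncommon. Among the 29 members that held both patterns, the gap between the nearest ETS and AP-1 sites had a median of 116 bases, and 6 pairs lay within 20 bases.

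The members were short regions from the later part of the Etv5 list. Their length had a median of 421 bp, with quartiles of 348 and 544 bp and a range of 299 to 1138 bp. The 3269 distal Etv5 regions that did overlap an Etv4 region (shared distal regions) had a median of 593 bp, and the 1196 Etv5-only regions within 2 kb of a start had a median of 422 bp. Each list numbers its regions from 1, with long regions mostly among the low numbers, but the criterion behind the number is not given in the sources used here. The median region number was 5830 for members, 2799 for shared distal regions and 5501 for Etv5-only regions near a start. Members had a median GC content of 45.0%, against 47.8% in shared distal regions and 41.6% in all distal 500-bp windows of the genome outside any region. At the edges of the rule, the closest members lay 2, 4 and 4 bases from an Etv4 region, while the distal regions just outside shared 5, 9 and 10 bases with one. In all, 14 members lay within 50 bp of an Etv4 region, and 12 shared regions had under 50 bp in common with one. The members nearest to a start lay 2002, 2015 and 2020 bp away, and the Etv5-only regions just excluded lay 1990, 1996 and 1997 bp away. The farthest intergenic members lay 49256, 49312 and 49912 bp from a start, and those just outside lay 50581, 50706 and 50713 bp away.

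The first question was which sequence patterns the members contained, since sequence had no part in their choice. AP-1 was the pattern that stood out. In 500 bp around the midpoint, 485 of 1591 members (30.5%, exact interval 28.2 to 32.8%) held TGACTCA or TGAGTCA on either strand. All distal windows of the genome with the same GC content held it in 8.0%, and thus members held AP-1 3.81-fold more often (3.53 to 4.10) than that background. The same 7 letters written backwards, a pattern of equal composition, occurred in 9.24% of members, 1.17-fold (0.996 to 1.36) of its own background. Of the members with AP-1, 378 had 1 site, 96 had 2 and 11 had 3, the most in any member. AP-1 was in 269 of 830 intronic members (32.4%) and in 216 of 761 intergenic ones (28.4%), a difference of 4.03 points whose interval ran from -0.504 to 8.52.

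AP-1 was less frequent in members than in the distal regions where both lists had a region. Shared distal regions held it in 50.9% (49.2 to 52.6), and the difference of members minus shared regions was -20.4 points (Newcombe interval -23.2 to -17.5). The backward AP-1 letters also differed between these sets, at 12.1% in shared distal regions (1.55-fold of their background) and with a difference of -2.87 points (-4.64 to -1.01). The 4321 Etv4-only distal regions held AP-1 in 45.6%, and the difference of members minus these was -15.2 points (interval -17.8 to -12.4). Etv5-only regions within 2 kb of a start held AP-1 in 13.5%, and members exceeded these by 16.9 points (13.9 to 19.9). Members thus lay between the regions near starts and the other distal regions in AP-1 content, beyond counting error on both sides.

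**Figure D1:**
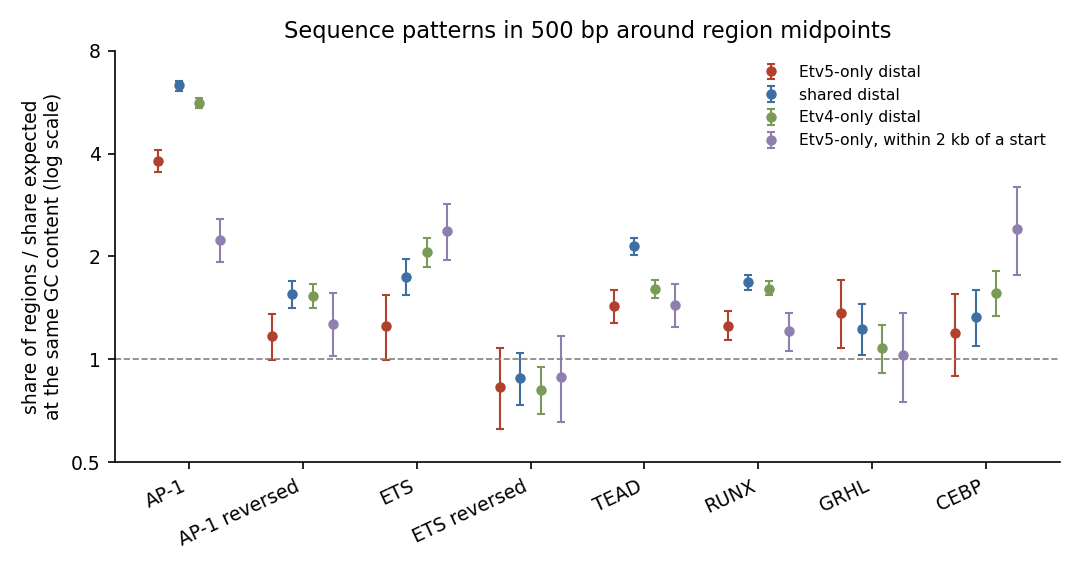
The plot shows, on a log scale, the share of regions with each pattern in 500 bp divided by the share expected at the same GC content, for 4 sets of regions. Points are folds and bars are 95% intervals. The Etv5-only distal regions lie at 3.81 for AP-1, below the shared distal regions at 6.33, and at 1.25 for ETS, with an interval that reaches 0.995.

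AP-1 sites were concentrated near the midpoint of members. In the central 200 bp there were 300 sites, or 0.943 per kb of sequence. Between 500 and 1000 bp from the midpoint there were 330 sites, or 0.207 per kb, and the central density was therefore 4.55 times the distant one. In shared distal regions the central density was 1.82 per kb and the ratio 8.85. The distant densities of the sets were 0.207 and 0.206 per kb, whereas the central densities were 0.943 and 1.82 per kb. The backward AP-1 letters had a ratio of 1.27 in members.

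**Figure D2:**
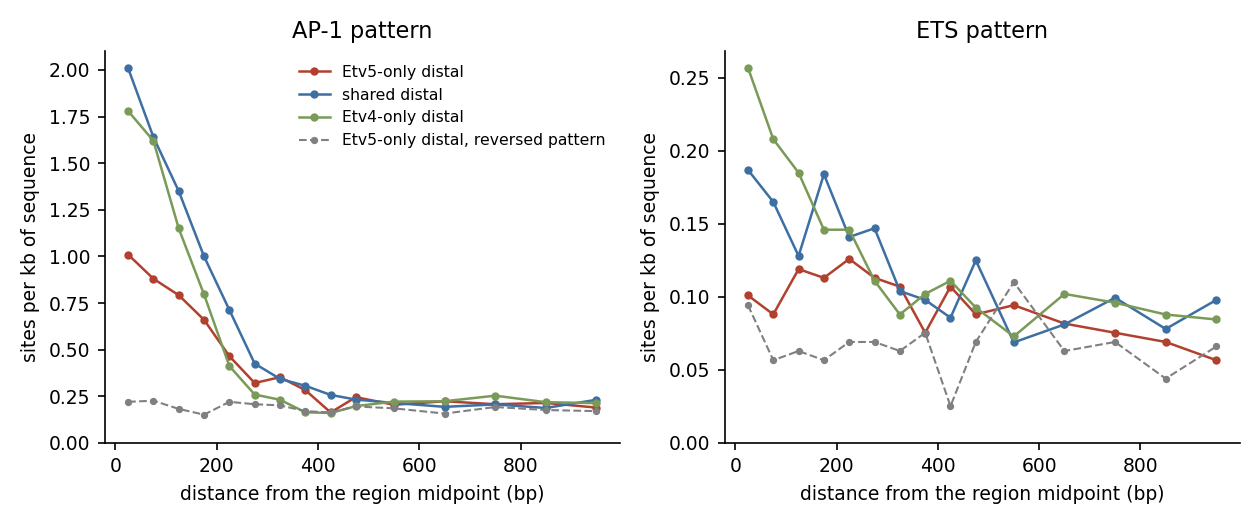
The plot gives sites per kb against distance from the region midpoint in bp, for AP-1 (left) and ETS (right) in 3 sets of distal regions, with the backward pattern in Etv5-only distal regions as a dashed line. In Etv5-only distal regions AP-1 falls from 1.01 sites per kb in the innermost 50 bp to 0.204 at 500 to 600 bp, whereas ETS stays between 0.0566 and 0.126.

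The ETS pattern itself, counted only as the exact sites CAGGAAGT and CCGGAAGT, was rare in members. This pattern leaves out 8-base sites with other bases around GGAA, so its share is not that of all possible ETS sites. The pattern was found in 81 of 1591 members (5.09%, 4.06 to 6.29), against 4.08% expected at their GC content, a fold of 1.25 with an interval (0.995 to 1.54) that included 1. The interval was above 1 in 8 of 13 alternative settings, and in the longer 50% of the Etv5 list the fold was 0.842 (0.464 to 1.40). The same letters written backwards were found in 53 members (3.33%), 0.829-fold (0.624 to 1.08) of their background. Shared distal regions held the ETS pattern in 7.59%, and the difference of members minus shared regions was -2.5 points (interval -3.86 to -1.03). Etv4-only distal regions held it in 8.91%, which gave a difference of -3.82 points (interval -5.14 to -2.38). ETS sites were also hardly centred in members, with 0.0943 per kb in the central 200 bp and 0.0754 per kb farther out, a ratio of 1.25. That ratio was 2.07 in shared and 2.62 in Etv4-only distal regions.

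The strict site CCGGAAGT, which contains a CpG and is typical of promoters, separated members from Etv5-only regions near starts. It occurred in 11 members (0.691%, 0.346 to 1.23) and in 60 of the 1196 Etv5-only regions within 2 kb of a start (5.02%). The difference of members minus regions near starts was -4.33 points (interval -5.75 to -3.10). Against shared distal regions (0.704%) the difference was -0.0122 points (-0.476 to 0.579). The bare GGAA core was in 99.4% of members and in 99.2% of windows of the same GC content.

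An excess of ETS sites in the members with AP-1 was not detectable at this number of regions. Both were found in 29 members (1.82%), and 1054 members (66.2%) held neither. Among members with AP-1, 5.98% also had an ETS site, and among those without AP-1, 4.70% had one, a difference of 1.28 points (-0.998 to 3.99). In shared distal regions 45.8% held neither pattern.

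Patterns of other factors were present at lower folds. TEAD sites (ACATTCC or GCATTCC), bound by the partners of Yap and Taz in Hippo signalling, were in 276 members (17.3%, 1.43-fold, 1.28 to 1.59). RUNX sites (TGTGGTC or TGTGGTT) were in 348 members (21.9%, 1.25-fold, 1.14 to 1.38). Sites of Grhl factors, regulators of epithelial identity (AACCAGTT, AACCGGTT or AACCTGTT), were in 73 members (4.59%, 1.37-fold, 1.08 to 1.71). Members were below shared distal regions in both, with differences of -8.62 points for TEAD (-11.0 to -6.19) and -7.34 points for RUNX (-9.86 to -4.74). For GRHL the members exceeded shared regions by 0.581 points, an interval of -0.595 to 1.88. CEBP sites (TTGCACAA, TTGCATAA, TTGCGCAA or TTGCGTAA) occurred in 53 members, 1.19-fold (0.896 to 1.55) of the expected share. TEAD sites, like AP-1 sites, were denser near the midpoint, at 0.456 per kb centrally and 0.261 per kb farther out, whereas RUNX sites were at 0.572 and 0.466 per kb.

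Words containing CG and words of the AP-1 site led a search without chosen patterns. Of all 2080 words of 6 bases (a word and its reverse complement counted as 1), 245 (11.8%) were at least 1.2-fold more frequent in members than in windows of the same GC content. In shared distal regions 377 words passed that size. The AP-1 words GAGTCA and GACTCA were found in 44.9% and 40.0% of members, 1.80-fold and 1.76-fold of the expected share, and ranked 7 and 9. In shared distal regions GACTCA and GAGTCA ranked 1 and 2. Of the 25 words with the highest fold in members, 23 contained CG, a dinucleotide found in 604 of the 2080 words. The background was matched in GC content but not in the number of CG dinucleotides. Their mean number per 500 bp was 5.58 in members, 6.84 in shared distal regions and 3.85 in distal windows. Many of the leading CG words were in few regions, such as GCGCGA in 23 and ACGTCG in 16. The leading word, AATTCG, was in 98 members, 1.99-fold of the expected share, but in 50 of the 1339 members that were not mostly multicopy, 1.27-fold. Of the words of the ETS site, CCGGAA was at 1.17-fold, ACTTCC at 1.10-fold, CAGGAA at 1.08-fold, AGGAAG at 1.03-fold and CGGAAG at 0.957-fold. In the members that were not mostly multicopy these 5 words ranged from 0.997-fold for CGGAAG to 1.22-fold for CCGGAA. In those members the AP-1 words GACTCA and GAGTCA were at 1.97-fold and 1.94-fold and ranked 5 and 6, and 23 of the leading 25 words again contained CG. The background of these last folds was not filtered for multicopy sequence.

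Because members were concentrated at high region numbers, they were compared with shared distal regions within 5 equal parts of the Etv5 list in order of region number. Members were 50, 202, 323, 457 and 559 from part 1 to part 5, or 4.55% of the distal Etv5 regions in part 1 and 60.2% in part 5. AP-1 was less frequent in members in each of the 5 parts. In part 1 the shares were 34% in members and 51.0% in shared distal regions (difference interval -29.0 to -2.88). In part 2 they were 32.7% and 51.7% (interval -26.1 to -11.5), and in part 3 41.2% and 54.3% (-19.7 to -6.32). In parts 4 and 5 they were 28% against 48.3% (-26.3 to -14.0) and 25.2% against 46.6% (-27.5 to -15.1), although median lengths were nearly equal there, at 423 bp for both sets and at 336 and 330 bp. Averaged over the 5 parts with equal weight, the AP-1 difference was -18.2 points, close to the -20.4 points without this division. For ETS the interval of the difference included 0 in parts 1 to 4 and lay below 0 in part 5, where members held 4.47% and shared regions 7.86% (interval -6.89 to -0.285). The ETS differences of parts 1 to 4 were -6.68, -2.26, 0.0673 and -1.22 points, and the mean over the 5 parts was -2.70 points, against -2.5 without the division.

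**Figure D3:**
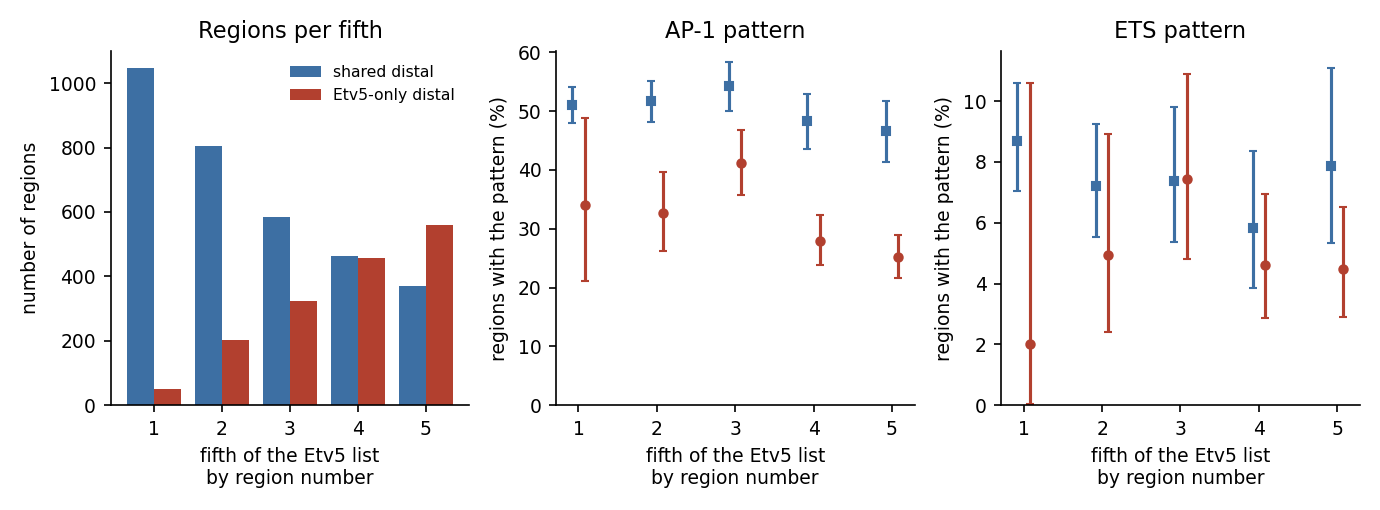
The bars give the number of Etv5-only and shared distal regions in 5 equal parts of the Etv5 list by region number, and the points give the share of each with an AP-1 or ETS pattern, with exact 95% intervals. Members rise from 50 in part 1 to 559 in part 5, and their AP-1 share stays between 25.2 and 41.2%, below 46.6 to 54.3% in shared distal regions.

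A subset of members lay in repeated sequence. In 252 members (15.8%, 14.1 to 17.7) over 50% of the sequences of 36 bases had a further copy in the genome, and such members are here called mostly multicopy. This share was 7.98% in shared distal regions, 7.86 points lower (5.88 to 9.93), and 15.8% in a sample of 10010 distal windows. It was 10.8% in intronic and 21.3% in intergenic members. Of the 252, 229 were also mostly soft-masked as repeats, and 31 lay on chromosome X or Y. In these 252, AP-1 was in 8 (3.17%, 1.38 to 6.16), TEAD in 10 (3.97%), ETS in 1 (0.397%, 0.0100 to 2.19) and RUNX in 39 (15.5%, 11.2 to 20.5). Among the other 1339 members AP-1 was in 35.6% (33.1 to 38.3) and ETS in 5.97% (4.77 to 7.38), and shared distal regions filtered in the same way held 55.1% and 8.21%. Without the mostly multicopy regions, the ETS fold of members was 1.42 (1.13 to 1.75), over a background that was not filtered in this way. It was 1.29 (1.02 to 1.59) when mostly soft-masked sequence was left out of members and background as well. Whether reads from repeated sequence contributed to these regions was not tested.

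Members lay near Etv4 regions more often than distal windows of the genome did, although by the rule members overlapped none. Other sets of regions were not measured in this way, so such nearness cannot be called particular to members. Of the members, 64 (4.02%) lay within 0.3 kb of an Etv4 region, just outside the overlap rule, against 0.211% of windows. The nearest Etv4 region was within 1 kb for 134 members (8.42%), against 0.708% of distal windows, and within 10 kb for 477 (30%, 27.7 to 32.3), against 7.14%. Within 100 kb these shares were 71% and 39.6%. The median gap was 34.1 kb for members and 154 kb for windows, and the largest gap of a member was 3.70 Mb. Of intronic members 29.3% lay within 10 kb, and of intergenic members 30.7%.

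**Figure D4:**
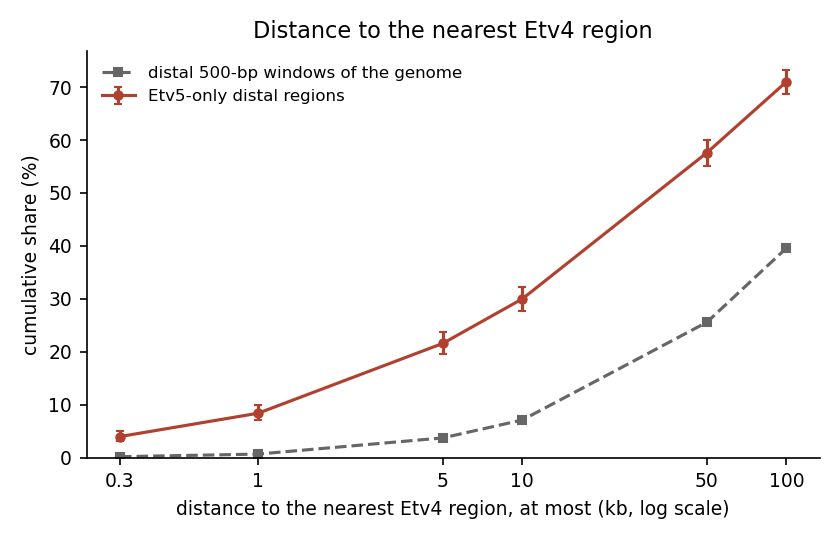
The curve gives the cumulative share of Etv5-only distal regions (points with exact 95% intervals) and of distal 500-bp windows of the genome (dashed) against the distance to the nearest Etv4 region in kb, on a log axis. At 10 kb the curve for regions stands at 30% and that for windows at 7.14%.

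A higher AP-1 share was not found in members close to an Etv4 region. The share was 29.1% up to 1 kb, 29.4% from 1 to 10 kb, 36.8% from 10 to 100 kb and 22.8% beyond 100 kb, where 36.7% of members were mostly multicopy. Without the mostly multicopy members the shares were 30.4%, 30.8%, 40.0% and 34.2% in the same order. The difference of members within 10 kb minus those beyond was -7.47 points (-12.7 to -2.06) without the mostly multicopy members, an alternative chosen after seeing the data, and -1.62 points (-6.41 to 3.38) over all members. The ETS pattern was in 3 of the 134 members within 1 kb (2.24%) and in 27 of the 343 from 1 to 10 kb (7.87%), and the difference between within and beyond 10 kb was 1.71 points (-0.602 to 4.48), or 0.708 points (-1.88 to 3.69) without the mostly multicopy members.

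The members were spread over all chromosomes in rough proportion to the shared regions. They made up 32.7% of the distal Etv5 regions of the genome, from 28.0% on chromosome 11 to 40.0% on chromosome Y, where they were 6. On chromosome 4 the share was 39.1% (34 to 44.4). Per Mb of distal sequence the densest autosome was chromosome 15, with 1.67 members against 0.855 over the genome, and the sparsest was chromosome 14 with 0.388. On chromosome X 34 members were found, of which 76.5% were mostly multicopy and 5.88% held AP-1. The megabase with the most members was chr4:88000001-89000000, which contains interferon genes, with 16 members, none of them mostly multicopy, and 24 shared distal regions. The next, chr8:20000001-21000000, had 11 members, all of them mostly multicopy. Another Etv5 region had its midpoint within 5 kb of 245 members (15.4%).

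To describe the genes around members, each region was assigned to the protein-coding genes that contain it, or otherwise to the one with the nearest start within 50 kb. By this rule 1254 members were assigned, 707 of them inside a gene, and 337 had no protein-coding gene. At least 1 member was assigned to 1117 of 21938 protein-coding genes (5.09%), and at least 1 shared distal region to 1764 (8.04%). A single member was found at 992 genes, 2 at 104 and 3 or more at 21. Both kinds of region occurred at 349 genes, which is 31.2% of the genes with a member and 19.8% of those with a shared distal region. At 568 genes with a member (50.9%) no distal region of the Etv4 list was assigned. Members were chosen for having no Etv4 overlap, and the same share over all protein-coding genes was not counted. The 50.9% is therefore not a result about these genes.

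The share of genes with a member rose with gene length. Genes with a member had a median length of 65.5 kb, against 17.4 kb for all protein-coding genes and 58.2 kb for genes with a shared distal region. A member was assigned to 2.12% of genes under 20 kb, to 5.44% of genes of 20 to 100 kb, to 16.4% of genes of 100 to 300 kb and to 23.8% of longer ones. Of the 695 members whose intron could be numbered in the longest transcript, 259 (37.3%, 33.7 to 41.0) lay in intron 1, and of the shared distal regions 33.0% did. The difference of 4.31 points had an interval from -0.00366 to 8.69.

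**Figure D5:**
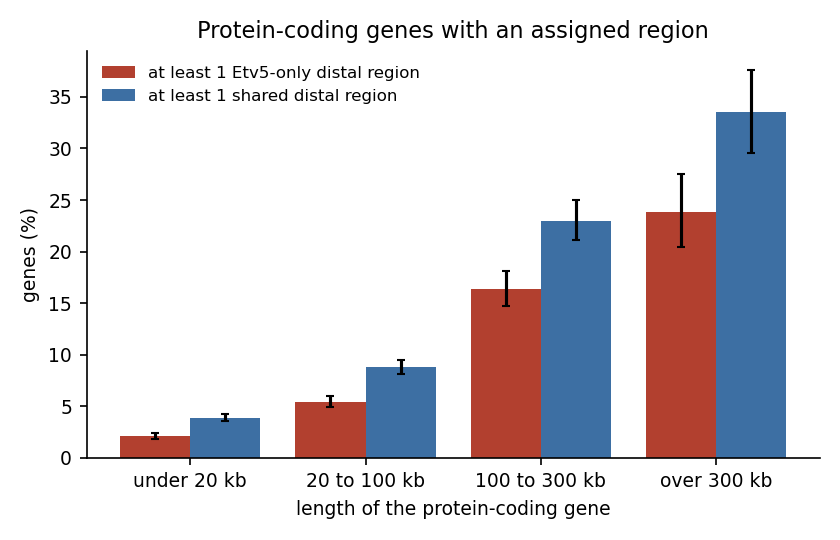
The bars show the percentage of protein-coding genes in each length class with at least 1 assigned Etv5-only distal region or shared distal region, with exact 95% intervals. For Etv5-only distal regions the share rises from 2.12% of genes under 20 kb to 23.8% of genes over 300 kb.

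The genes with the most members were mostly long. The gene model Gm20388, which extends over 4435 kb of chromosome 8 and overlaps many other genes, contained 12 members and 33 shared distal regions. Mllt3 (chr4:87769925-88033364), a reader of acetylated histones in transcription elongation complexes, and Uaca (chr9:60794542-60880370) were each assigned 5 members. Gm15319 on chromosome 8 also had 5, all of them mostly multicopy. Then followed Focad, Gm37240, Ifne, Maml2 and Rims2 with 4 members each and 2900026A02Rik with 3. Mllt3, Focad (chr4:88094629-88411011) and Ifne (chr4:88879538-88880201) lie close together, in or beside the megabase with the most members. They are thus not independent examples, and Ifne is only 0.664 kb long. Maml2 encodes a coactivator of Notch, and Rims2 a protein of the presynaptic active zone. Focad, Maml2 and Rims2 had no shared distal region, and Rims2 also had no distal region of the Etv4 list. Of the members at these 10 genes, those with AP-1 ranged from 0 at Ifne and Gm15319 to 4 at Gm20388.

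Genes of signalling pathways, cell structures, transcription factor families and other groups were examined by lists of known members. Over 18 lists with 455 genes found, 67 genes (14.7%) had an Etv5-only distal region, against 5.09% of all protein-coding genes, and 131 (28.8%) had a shared distal region, against 8.04%. The listed genes were longer than most, with a median of 30 kb. If each listed gene had the share of its length class, 33.3 genes with a member would be expected. The lists were drawn up with earlier results of these data known, and these counts are a description only.

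Among epithelial identity and junction genes, 8 of 35 had a member, against 1.63 expected at their lengths. Cdh1, which encodes E-cadherin, had 2 members, both in intron 2, at chr8:106611109-106611606 with an AP-1 site and at chr8:106640643-106641101 without one. Pkp1, a desmosomal plakophilin, had a member in intron 1 at chr1:135916650-135917127. Grhl2, a transcription factor that maintains epithelial identity, had 3 members, 2 of them intronic, of which chr15:37313034-37313478 held an AP-1 site. Cldn1, Pkp2, Grhl3 and Krt8 had 1 each. Shared distal regions were assigned to 7 genes of this list, so that here members reached at least as many genes.

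Among mesenchymal and matrix genes, 7 of 32 had a member, against 2.28 expected, and 13 had a shared distal region. These were Col4a2 (chr8:11346044-11346776, intron 3), Fbn1 (chr2:125304025-125304573, intron 63), Timp2 (chr11:118318677-118319188 and 1 more) and Postn (chr3:54358532-54358915, 2.38 kb upstream), with Col5a1, Cdh2 and Tgfbi. They encode a basement membrane collagen chain, fibrillin, an inhibitor of metalloproteinases and periostin, in the order of the first 4. The Col4a2, Fbn1 and Col5a1 members held AP-1. The Fbn1 member lay 0.0700 kb from an Etv4 region, the second Timp2 member 0.0410 kb and the Postn member 75.5 kb from one. Of 34 extracellular protease genes 3 had a member, against 1.91 expected. They were Plau, which encodes urokinase (chr14:20863759-20864279, downstream), Adam12 (chr7:134001484-134001996, with 3 AP-1 sites) and Mmp13 (chr9:7263008-7263579, 9.22 kb upstream and 0.284 kb from an Etv4 region).

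In the TGF-β pathway 3 of 24 genes had a member, against 1.62 expected. Ski, a repressor of Smad proteins, had one in intron 1 (chr4:155173513-155173945). Tgfb2, a ligand, had one downstream (chr1:186609908-186610352) and Tgfbr1, the type I receptor, one 22.4 kb upstream (chr4:47330635-47330958), both with AP-1. None of these 3 genes had a shared distal region, while 8 genes of the list had one. Of 18 EMT transcription factor genes 1 had a member, Tcf3 (chr10:80461245-80461573), against 1.30 expected, and 7 had a shared distal region.

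Feedback regulators of ERK signalling had members at 4 of 19 genes, against 0.602 expected, and shared distal regions at 9. All 4 were Dusp genes, which encode phosphatases that switch off MAP kinases. The members were at Dusp8 (chr7:142083952-142084340, intronic), Dusp14 (chr11:84064138-84064636, intronic, 71.4% soft-masked), Dusp5 (chr19:53553527-53553931, downstream) and Dusp4 (chr8:34765076-34765440, upstream). The Dusp5 and Dusp8 members lay only 0.142 and 0.311 kb from an Etv4 region. None of the 4 members held an AP-1 or ETS site. Among 25 Ras and MAP kinase genes 1 had a member, against 1.77 expected, namely Rasal2, a Ras GTPase-activating protein (chr1:157343353-157343826). Among 15 EGF receptor ligands and receptors, 3 had one, against 1.56 expected, namely Erbb2 (chr11:98418916-98419608, intron 1, with region number 1519), Nrg1 (chr8:32452247-32452581) and Epgn (chr5:91037767-91038084). The Epgn member lay 0.309 kb from an Etv4 region.

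Genes of transcription factor families were examined next. Of the RUNX, CEBP and NFI factors with their partners, 6 of 16 had a member, against 1.69 expected, with Cbfa2t2 (chr2:154463605-154464306), Nfix (chr8:84744100-84744551), Cbfb (chr8:105189523-105189936) and Nfib (chr4:82700802-82701174 and 2 more) first in region number, then Nfic and Runx3. Shared distal regions were also assigned to 6 genes of this list. Among 19 AP-1 genes 1 was assigned a member, against 0.669 expected. This was Jun, with 2 that lay in introns of other annotated genes on either side (chr4:95023703-95024270 and chr4:95100493-95100984). Both held AP-1 and the second also held ETS. Of 26 ETS family genes, 3 had a member, against 1.63 expected, and these included both factors of the study, Etv5 (chr16:22428848-22429208, intron 5) and Etv4 (chr11:101807330-101807688, 22.1 kb upstream), with Etv6 (chr6:134274848-134275181). The Etv4 and Etv5 genes had no shared distal region.

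Hippo pathway genes had members at 4 of 23, against 1.61 expected, and shared distal regions at 11. They were Vgll3 (chr16:65818806-65819368, with AP-1 and ETS), Wwtr1, which encodes Taz (chr3:57554468-57554927), Tead4 (chr6:128285871-128286286, with ETS) and Vgll4 (chr6:114931654-114931984). The Wwtr1 member lay 0.486 kb from an Etv4 region. Actin cytoskeleton genes and their regulators had members at 6 of 39, against 2.65 expected, among them Rhob (chr12:8519203-8519854), Pxn (chr5:115523923-115524323 and 1 more) and Mrtfb (chr16:13323656-13324222, with AP-1 and ETS). Diaph1 and Tpm1 also had 1 each. Integrins and laminins had members at 4 of 30 genes, against 2.95 expected, and shared distal regions at 18. The 4 were Lamc3 (chr2:31896216-31896608), Lama4 (chr10:38979516-38979957), Lama2 (chr10:27633115-27633449) and Itga8, whose region was 74.9% multicopy.

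Of 22 cell cycle genes 1 had a member, against 0.918 expected, namely Myc, 11.5 kb downstream (chr15:61998767-61999071) and with an ETS site. Of 29 inflammatory and NF-κB genes 2 had one, against 0.891 expected. They were Nfkb1 (chr3:135688375-135688744, intron 1) and Il1b (chr2:129407162-129407487), and the latter held the strict ETS site. These 2 members lay 0.291 and 0.235 kb from an Etv4 region. No member was assigned to any of 19 milk protein and liver genes, with 0.470 expected, of which none had a shared distal region either. A list of very long genes, most of them known for their roles in neurons or muscle, had members at 10 of 30 genes and shared distal regions at 5. At the share of all genes over 300 kb, 7.14 genes with a member would be expected. The median length in this list was 1137 kb, so that class does not match these genes in length. Among its genes of lowest region number were Dmd (chrX:84832162-84832758, 81.7% multicopy), Grm7 (chr6:111195872-111196466, 56.1% multicopy) and Tenm2 (chr11:36213207-36213562). This list, the epithelial list and the list of RUNX, CEBP and NFI factors were the 3 with at least as many genes with a member as genes with a shared distal region, apart from the milk protein and liver genes with none of either.

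The longest members and those of lowest region number are given as examples of the ends of the list. The longest was a 1138-bp region on chromosome Y (chrY:4158025-4159162), 71.6% soft-masked. The next 4 were near Susd1 (chr4:59450203-59451243, 1041 bp), Cirbp (chr10:80159514-80160465, 952 bp), Focad (chr4:88080761-88081709, 949 bp) and a 944-bp region on chromosome 15 (chr15:102839317-102840260). Only the last held AP-1, in the stretch printed above, and none held ETS. Among the 5 members of lowest region number were 508 near Gadd45b (chr10:80940536-80941300), a stress gene induced by TGF-β, 515 near Gm14851 (chr8:21109712-21110314), 586 on chromosome 12 (chr12:97061220-97062008) and 630 on chromosome 18. The regions numbered 515 and 630 were 95.4% and 85.3% multicopy. Only the region numbered 515 held AP-1, and none of the 5 held ETS.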

How the data were processed

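ChIP-seq was performed with an antibody to Etv4 or Etv5 on EpRas cells, with 1 library each. Per the labels, reads were mapped to mm10 with Bowtie, and the study's methods, which refer to its accessibility assay for ChIP-seq, name bowtie2 for that assay. The authors called regions in each library with CisGenome, run on that library alone without a control, at a p threshold of 0.1 in windows of 300 bp. Each deposited file is a list of region positions with a region number. All regions carry the same deposited score of 1000, which was therefore not used. Depth is unknown, and regions of repeated sequence or altered copy number are not removed by such calling.

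Samples were grouped by antibody. Overlap required 1 bp. Sequence came from RefSeq's GRCm38, the assembly mm10 names, and annotation from GENCODE on that assembly. Either strand of the 500 bp centred on a midpoint could hold a pattern. The background was every distal 500-bp window outside all regions (3723472), weighted to the GC content of each set in bins of 2 percentage points, where classes with fewer than 100 windows took the nearest larger class. Shares have exact (Clopper-Pearson) 95% intervals and differences have Newcombe intervals. A fold interval is that of the share divided by the expected share. Repeated sequence was counted with sequences of 36 bases, the read length in the study's accessibility data.

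The members, gene lists and patterns were chosen with earlier results of these data known. Named genes were those on the lists with an assigned member, with positions for up to 4 per list in order of region number, the 10 genes with the most members, and the 5 longest and 5 lowest-numbered members. Some genes that this rule names are not reported here. Region number stands for an unstated criterion. The functions were tested on simulated data. Alternatives covered the window, the overlap rule, the set of starts, distances, repeats, parts of the list, autosomes, the ETS pattern and the background. The software was scipy 1.17.1 for intervals, numba 0.67.0 and numpy 2.4.6 for sequence, pandas 2.3.3 for tables and matplotlib 3.10.9 for plots, under Python 3.11.15.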

Additional observations from a re-analysis of the deposited data

How the results depend on the processing

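Of 77 alternative values of shares, folds and differences, 51 stayed within the 95% interval of the reported value and 26 did not. No difference changed sign, but the ETS fold fell below 1 in the longer 50% of the Etv5 list. The number of members stayed within 1.5 times in 6 of 8 alternatives. It was 409 in the first 50% of the Etv5 list by region number and 425 in the longer 50% of the list. Windows of 200 and 1000 bp gave ETS shares of 1.70% and 9.49%, AP-1 shares of 16.8% and 38.7%, and AP-1 folds of 5.19 and 2.53. The window of 200 bp gave an AP-1 difference from shared distal regions of -13.2 points. The first 50% by region number gave an AP-1 share of 37.4%, an AP-1 fold of 4.65, an AP-1 difference of -14.2 points and a member at 1.43% of genes. The longer 50% gave an ETS share of 3.29%, an ETS fold of 0.842 (0.464 to 1.40), an AP-1 share of 27.5%, an AP-1 fold of 3.51, an ETS difference of -4.24 points and a member at 1.37% of genes. The strict ETS pattern gave a share of 0.691%, a fold of 1.86 and a difference of -0.0122 points. Without mostly multicopy regions the AP-1 share was 35.6%, the AP-1 fold 4.40 and the share of genes 4.49%. At over 5 kb from a start, 4.06% of genes had a member. With mostly soft-masked regions left out too, an alternative chosen after seeing the data, the AP-1 share was 36.7% and the share of genes 4.34%. Shorter windows and fewer regions lower shares and counts by construction, and otherwise the cause was not tested. The interval of the ETS fold included 1 as reported (0.995 to 1.54) and in 5 of 13 alternatives, namely protein-coding starts only (0.974 to 1.54), the first 50% by number (0.953 to 2.12), the longer 50%, the window of 200 bp (0.683 to 1.50) and the strict pattern (0.927 to 3.31). It lay above 1 in the other 8, with lower bounds of 1.01 (over 300 bp from Etv4 regions, over 5 kb from a start, and autosomes), 1.02 (window of 1000 bp, and neither multicopy nor masked), 1.03 (flanking windows as background), 1.13 (without multicopy regions) and 1.14 (no GC weighting). The interval of the ETS difference included 0 in the first 50% by number (-4.10 to 1.14) and with the strict pattern (-0.476 to 0.579). No paired analysis was possible because a single library was made with either antibody. Depth and enrichment per region are unknown.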

Other observations

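Some patterns were in few members, so their comparisons between sets are imprecise. The CTCF consensus, the site of an insulator protein, was in 13 members (0.817%, exact interval 0.436 to 1.39), 2.18-fold (1.16 to 3.71) of the share expected at their GC content, and in 0.489% of shared distal regions, a difference of 0.328 points (Newcombe interval -0.128 to 0.933). The palindromic Smad site GTCTAGAC was in 10 members (0.629%, 1.51-fold, 0.724 to 2.77) and in 0.887% of shared distal regions. The NFI consensus was in 1 member. Tandem GGAA repeats of at least 3 units, which some ETS fusion proteins bind, were in 3 members (0.189%), 0.217-fold (0.0448 to 0.634) of the expected share.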
